A study of Homo sapiens with 6 samples.

Results

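The 9 genes described here carry iron into the cell, store it, sense it or set how far iron-driven lipid damage proceeds: TFRC, FTH1, FTL, NCOA4, ACO1, IREB2, GPX4, AIFM2 and ACSL4. They were chosen by name, with earlier results of these data known, from the 32679 genes of a gene expression table, and every one of the 9 passed the filter on low values. The table holds short-read poly(A) RNA-seq of HEY cells, an established human ovarian cancer line, in 3 shNC samples (control hairpin) and 3 shPQBP1 samples (doxycycline-inducible hairpin against the splicing factor PQBP1). By the labels, all 6 samples were taken on day 3, the shPQBP1 samples had doxycycline at 1 µg/ml and the shNC samples had no treatment, so that the hairpin and doxycycline cannot be told apart. The study's methods describe its hairpin lines as lentivirus-infected and puromycin-selected, and whether a line was a pool or a clone is not given in the sources used here. The samples are called biological triplicates with no statement of separate cultures, so p-values measure the spread between these samples, which may be technical.

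Iron bound to transferrin enters the cell through the transferrin receptor TFRC and is stored in ferritin, a shell of heavy (FTH1) and light (FTL) chains, from which the receptor NCOA4 releases it by delivering ferritin to lysosomes. ACO1 (iron regulatory protein IRP1) and IREB2 (IRP2) bind iron-responsive elements, short hairpins in the untranslated regions of mRNAs, when iron is scarce. Binding to an element in the 5′ untranslated region of a ferritin mRNA blocks its translation, whereas binding to the elements in the 3′ untranslated region of TFRC mRNA protects that mRNA from decay. Ferroptosis is a form of cell death driven by iron-dependent peroxidation of polyunsaturated phospholipids. ACSL4 activates the fatty acids that enter those phospholipids, GPX4 reduces the lipid hydroperoxides, and AIFM2 (FSP1) suppresses peroxidation independently of GPX4 by reducing coenzyme Q.

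Iron-responsive elements found by a search of the ferritin and receptor transcripts are shown because the iron regulatory proteins bind the mRNAs of these members. The search ran on the transcript strand. Its pattern was a C, 5 bases, a loop of the 6 letters CAGTGN (N is any base) and 5 more bases. The last 5 pair with the first 5 (Watson-Crick or G-U). An element that departs from this pattern is missed, so the lines need not be every element of a transcript. Each line gives 27 bases 5′ to 3′ in the letters of the DNA, from hg38 and the GENCODE release 44 transcript, with the loop in capitals.
FTL, exon 1, 5′ untranslated region, chr19:48965336-48965362, plus strand: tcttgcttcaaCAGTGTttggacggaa
FTH1, exon 1, 5′ untranslated region, chr11:61967575-61967601, minus strand: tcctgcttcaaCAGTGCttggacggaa
TFRC, exon 19, 3′ untranslated region, chr3:196050980-196051006, minus strand: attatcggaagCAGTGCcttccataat
TFRC, exon 19, 3′ untranslated region, chr3:196050576-196050602, minus strand: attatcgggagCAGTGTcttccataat
TFRC, exon 19, 3′ untranslated region, chr3:196050511-196050537, minus strand: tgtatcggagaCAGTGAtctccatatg
TFRC, exon 19, 3′ untranslated region, chr3:196050464-196050490, minus strand: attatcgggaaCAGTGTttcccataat

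The FTL and FTH1 elements carried the same base at 25 of their 27 places. Of the 9968 protein-coding genes tested, 8 (0.0803%) held these letters in the 5′ untranslated region and 73 (0.732%) in the 3′ untranslated region. None of the other 6 members held a match in its untranslated regions, which says only that these letters were not in that transcript. A match is a match of letters and was not measured as binding.

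PQBP1 itself was at 7.18, 6.67 and 6.93 FPKM in shNC cells and at 1.68, 1.72 and 1.44 FPKM in shPQBP1 cells (log2 difference -2.04, limma adjusted p = 0.00154). FPKM is the number of fragments scaled to the length of the transcript and to the mapped fragments of the sample. The FPKM of all genes summed to between 294970.3 and 318484.3 per shNC sample and to between 278285.8 and 287422.6 per shPQBP1 sample. The number of reads behind a value is unknown. Of 7 ovarian carcinoma and epithelial markers, KRT7, KRT8, KRT18 and VIM lay at 52.76 FPKM or more in every sample, EPCAM lay near 1 FPKM and WT1 at or below 0.71 FPKM. VIM, a mesenchymal gene, made up most of the level: its mean was 1174.4 FPKM in shNC cells and 1296.0 FPKM in shPQBP1 cells. The 7 markers summed to between 1321.8 and 1469.5 FPKM in shNC cells and to between 1491.8 and 1586.1 FPKM in shPQBP1 cells. Of the 5 tested, PAX8 had an unadjusted p under 0.05 (log2 fold change 0.53, adjusted p = 0.102 by limma), against 23.6% of all genes tested. WT1 was lower in every shPQBP1 sample than in every shNC sample. Of 3 blood cell markers, PTPRC was listed at 0 in every sample and the sum reached at most 0.18 FPKM. The 4 endothelial markers summed to between 2.43 and 3.29 FPKM in shNC cells and to between 3.25 and 3.91 FPKM in shPQBP1 cells, most of it CDH5, which was higher without overlap (log2 fold change 0.44, adjusted p = 0.151 by limma), while PECAM1 was at most 0.25 FPKM and lower without overlap. WT1 and PECAM1 lay under the filter on low values and were not tested. The groups did not overlap in 34.4% of all genes tested. Whether the shift in these sums has a part in the results was not tested, and in bulk RNA fewer cells of a kind and less RNA per cell cannot be told apart.

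Among the 9 genes, ferritin light chain mRNA rose upon PQBP1 knockdown, by 1.41-fold, and no other member passed an adjusted p of 0.05. Heavy chain mRNA was higher by a like amount with a wider spread, and AIFM2 was lower. The receptor, NCOA4 and ACO1 differed by little between the group means. All values are of mRNA, and protein was not measured here. Changes are log2 fold changes of FPKM + 0.1 (shPQBP1 over shNC), which understate the change of genes with low values, tested with limma over the 11413 genes that averaged 1 FPKM or more and adjusted by Benjamini-Hochberg. Thus 1 of the 9 members was called at an adjusted p under 0.05, where 2.91% of all genes tested were. At an unadjusted p under 0.05, 3 members were called, against 23.6% of all genes tested. They were 2 higher (FTL and FTH1, against 11.9% of genes higher) and 1 lower (AIFM2, against 11.7% of genes lower). The shNC and shPQBP1 samples did not overlap in 2 members, FTL and AIFM2, against 34.4% of all genes tested, so that the members separated the groups no more often than genes in general. The median log2 fold change of the 9 members was 0.06, beside 0.02 for all genes tested.

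**Figure D1:**
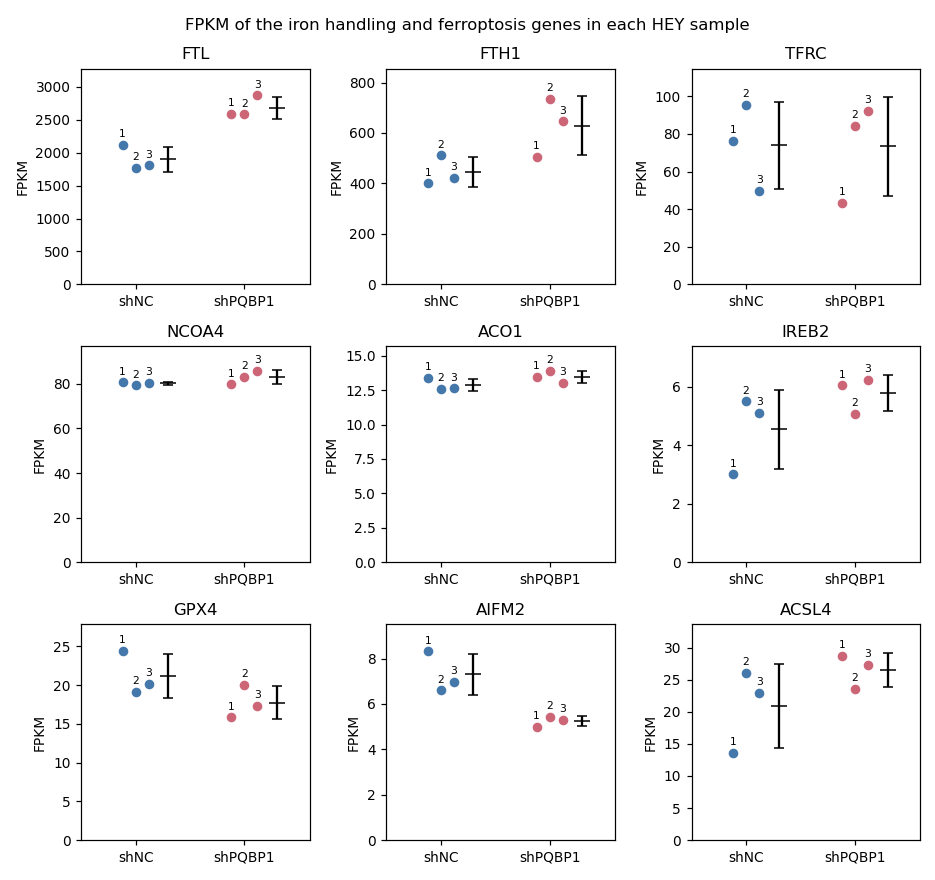
FPKM of the 9 genes (vertical axis, from 0) in the 3 shNC samples (blue) and the 3 shPQBP1 samples (red), with the sample number above each point and the mean ± SD beside each group. The shPQBP1 samples lie wholly above the shNC samples for FTL and wholly below them for AIFM2, and the groups overlap in the other 7 panels.

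FTL (ENSG00000087086, chr19:48965309-48966879, plus strand, 4 exons) encodes the light chain, which promotes the growth of the iron core. Its FPKM was 2118.39, 1773.62 and 1806.62 in shNC samples 1 to 3 and 2591.07, 2581.94 and 2870.16 in shPQBP1 samples 1 to 3. The lowest shPQBP1 sample lay above the highest shNC sample, and the means were 1899.5 ± 190.2 and 2681.1 ± 163.8 (SD, n = 3 each; exact permutation p = 0.1, two-sided, which is the lowest this design can reach). Its log2 fold change was 0.50 (SE 0.09, 95% interval 0.29 to 0.71, limma adjusted p = 0.0424). FTL ranked 19th, 19th and 20th among all genes by FPKM in shNC cells and 13th in each shPQBP1 sample. The call was near its threshold: without shNC sample 1 the adjusted p from limma was 0.0187, and without any 1 of the other 5 samples it lay between 0.101 and 0.157, with the log2 fold change from 0.45 to 0.58 over all 6 of these fits. It was also not called when all genes not listed at 0 throughout were tested (adjusted p = 0.235 by limma) or without the mean-variance trend (adjusted p = 0.0639 by limma).

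FTH1 (ENSG00000167996, chr11:61959718-61967634, minus strand, 4 exons) encodes the heavy chain, which oxidises iron for storage. Its FPKM was 400.14, 510.85 and 422.0 in shNC cells and 505.44, 736.35 and 646.28 in shPQBP1 cells. The groups overlapped, since shPQBP1 sample 1 lay just below shNC sample 2, while the other shPQBP1 samples lay above every shNC sample. FTH1 had a log2 fold change of 0.49 (SE 0.16, 95% interval 0.10 to 0.88, limma adjusted p = 0.144), close to that of FTL in size and not called. The light and heavy chain mRNAs together held 0.791%, 0.774% and 0.733% of the summed FPKM in shNC cells and 1.1%, 1.15% and 1.26% in shPQBP1 cells. The groups did not overlap in this share. They did not overlap in the summed FPKM either, which was lower in every shPQBP1 sample than in every shNC sample.

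The balance of the chain mRNAs was nearly the same in both groups. FTL exceeded FTH1 5.29-, 3.47- and 4.28-fold in FPKM in shNC cells and 5.13-, 3.51- and 4.44-fold in shPQBP1 cells. The means of this ratio were 4.35 and 4.36, and the spread within each group was far wider than the difference between them.

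Processed copies of the ferritin genes can share reads with their parents, which leaves the level of each uncertain. The table lists 15 numbered FTH1 pseudogenes, whose summed FPKM was 42.03, 38.52 and 37.44 in shNC cells and 58.31, 61.86 and 59.54 in shPQBP1 cells, from 7.54% to 11.5% of FTH1. The groups did not overlap in this sum. Of the 8 pseudogenes tested, 7 had a log2 fold change above 0, 6 were higher at an unadjusted p under 0.05 (against 11.9% of all genes tested), and FTH1P11 (1.59-fold, limma adjusted p = 0.0345) and FTH1P23 (1.91-fold, limma adjusted p = 0.0315) passed the adjusted threshold (against 2.91% of all genes tested). The exception was FTH1P10, which stood at 0.14 FPKM in shPQBP1 sample 2, against 2.05 to 3.56 FPKM in the other 5 samples. FTH1P20, among the 6 pseudogenes that were higher, averaged 0.95 FPKM in shNC cells. It passed the filter of 1 FPKM only through the shPQBP1 samples. As reads can be shared with FTH1, these rows are not separate observations, and their counts are a description only. The 4 FTL copies summed to between 0.0648% and 0.135% of FTL, and the 3 NCOA4 copies were at or near 0.

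TFRC (ENSG00000072274, chr3:196012511-196082153, minus strand, 19 exons), the main route of iron uptake, varied more within the groups than between them. Its FPKM was 76.25, 95.62 and 49.89 in shNC cells and 43.41, 84.37 and 92.4 in shPQBP1 cells. The highest sample exceeded the lowest 1.92-fold among the shNC samples and 2.13-fold among the shPQBP1 samples, and the means were 73.9 ± 23.0 and 73.4 ± 26.3 (SD, n = 3 each). The log2 fold change was -0.03, with a 95% interval from -0.90 to 0.83 (limma adjusted p = 0.958), an interval that holds values from 0.536 to 1.78 times the control level. Its sign turned when shNC sample 1 (0.01), shNC sample 2 (0.18) or shPQBP1 sample 1 (0.31) was left out. The genes whose centred log2 values lay nearest to those of TFRC over the 6 samples were TSSC4, NBPF9 and CNOT8, with root mean square differences of 0.129, 0.160 and 0.171 on the log2 scale, against 0.440 for TFRC about its own mean. TSSC4 was lowest in the same samples as TFRC, at 3.12 FPKM in shNC sample 3 and 2.57 FPKM in shPQBP1 sample 1. For FTH1 the nearest genes were EHD3 (0.0931), RFX8 (0.102) and AC034102 (0.103), against 0.312 for FTH1 about its own mean.

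Receptor and storage mRNA were also set against each other within each sample. The FPKM ratio of TFRC to FTH1 was 0.191, 0.187 and 0.118 in shNC cells and 0.0859, 0.115 and 0.143 in shPQBP1 cells. The groups overlapped through shNC sample 3 and shPQBP1 sample 3, with log2 means of -2.63 ± 0.39 and -3.16 ± 0.37 (SD, n = 3 each).

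**Figure D2:**
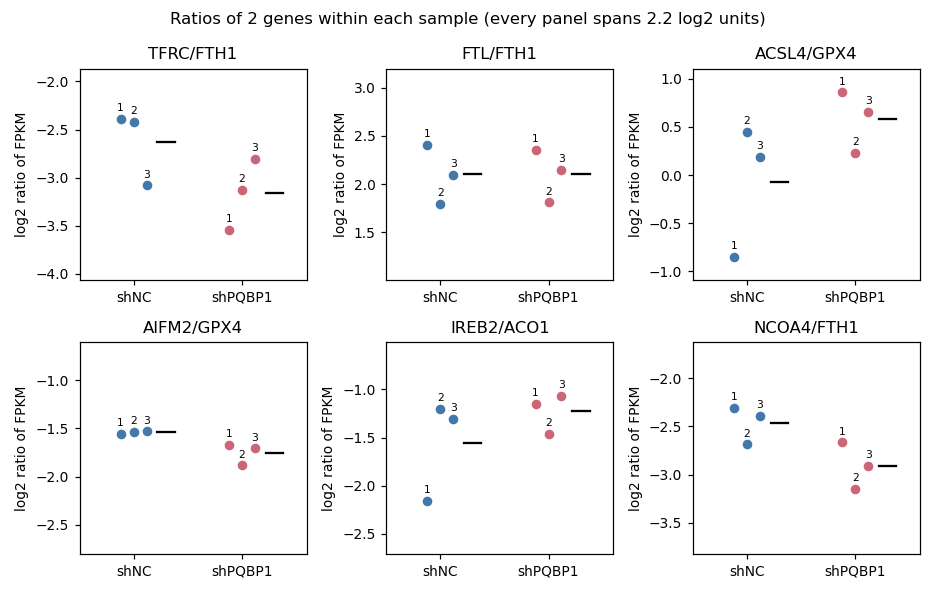
Log2 ratios of the FPKM of pairs of members within each sample (vertical axis, 2.2 log2 units in every panel), for shNC (blue) and shPQBP1 (red) samples numbered 1 to 3, with the group mean as a bar. FTL over FTH1 has nearly the same mean in both groups, and AIFM2 over GPX4 is the ratio of the 6 shown whose groups do not overlap.

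NCOA4 (ENSG00000266412, chr10:46005088-46030623, minus strand, 10 exons), the ferritin receptor for lysosomal breakdown, was among the steadiest members. Its FPKM was 80.76, 79.36 and 80.35 in shNC cells and 79.77, 83.17 and 85.94 in shPQBP1 cells. The log2 fold change was 0.05 (SE 0.06, 95% interval -0.10 to 0.20, limma adjusted p = 0.636), and the groups overlapped. Against FTH1, the log2 ratio of NCOA4 averaged -2.46 ± 0.20 in shNC cells and -2.91 ± 0.24 in shPQBP1 cells (SD, n = 3 each), with overlap between shPQBP1 sample 1 and shNC sample 2.

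Neither sensor of cellular iron was called. ACO1 (ENSG00000122729, chr9:32384603-32454769, plus strand, 21 exons), an aconitase that binds RNA once it loses its iron-sulphur cluster, was at 13.4, 12.62 and 12.64 FPKM in shNC cells and at 13.45, 13.92 and 13.03 FPKM in shPQBP1 cells. Its log2 fold change was 0.06 (95% interval -0.11 to 0.24, limma adjusted p = 0.603). IREB2 (ENSG00000136381, chr15:78437431-78501453, plus strand, 22 exons), which is degraded when iron is plentiful, was at 3.0, 5.5 and 5.11 FPKM in shNC cells and at 6.05, 5.06 and 6.23 FPKM in shPQBP1 cells. Sample 1 of the shNC group lay apart from the other 5, which overlapped. The log2 fold change of IREB2 was 0.38 (95% interval -0.19 to 0.96, limma adjusted p = 0.352) with that sample and 0.12 without it.

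Of the genes that set sensitivity to ferroptosis, AIFM2 (ENSG00000042286, chr10:70098223-70132934, minus strand, 9 exons) had the largest difference of the 3 members. Its FPKM was 8.32, 6.6 and 6.98 in shNC cells and 4.99, 5.43 and 5.31 in shPQBP1 cells, with no overlap (exact permutation p = 0.1, two-sided). AIFM2 had a log2 fold change of -0.46 (SE 0.11, 95% interval -0.73 to -0.20), and the adjusted p of 0.0818 from limma did not pass the threshold. MACROH2A2, a histone variant gene that overlaps AIFM2 on the opposite strand, had means of 9.99 and 7.5 FPKM in shNC and shPQBP1 cells. Whether reads were assigned by strand is not given in the sources used here, so reads from a stretch shared by both genes may be mixed. The overlap is one of gene spans, and whether it takes in exons was not examined.

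GPX4 (ENSG00000167468, chr19:1103982-1106791, plus strand, 7 exons), the selenoenzyme that reduces lipid hydroperoxides, was at 24.42, 19.11 and 20.14 FPKM in shNC cells and at 15.85, 20.04 and 17.31 FPKM in shPQBP1 cells. The groups overlapped through shPQBP1 sample 2, and the log2 fold change was -0.26 (95% interval -0.58 to 0.06, limma adjusted p = 0.284). AIFM2 stood at 0.341, 0.345 and 0.347 of the GPX4 level in FPKM in shNC cells and at 0.315, 0.271 and 0.307 in shPQBP1 cells. This ratio did not overlap between the groups, with log2 means of -1.54 ± 0.01 and -1.75 ± 0.12 (SD, n = 3 each).

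ACSL4 (ENSG00000068366, chrX:109624244-109733403, minus strand, 16 exons), which activates arachidonic and adrenic acid, was at 13.57, 26.1 and 22.95 FPKM in shNC cells and at 28.78, 23.54 and 27.29 FPKM in shPQBP1 cells. As for IREB2, shNC sample 1 lay far below the other 5 samples. ACSL4 had a log2 fold change of 0.39 (95% interval -0.21 to 0.99, limma adjusted p = 0.358), and 0.11 without that sample. The ratio of ACSL4 to GPX4 in FPKM was 0.556, 1.37 and 1.14 in shNC cells and 1.82, 1.17 and 1.58 in shPQBP1 cells, and the groups overlapped.

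Sample 1 of the shNC group was thus the lowest of the 6 in ACSL4 and IREB2 and the highest in GPX4 and AIFM2. Pearson's correlation of its log2 values with each other sample lay between 0.926 and 0.955 across genes, the lowest range of the 6 samples. Without it the log2 fold change of AIFM2 was -0.37 (limma adjusted p = 0.0650) and that of GPX4 was -0.15 (limma adjusted p = 0.449).

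By mean FPKM, which is per length of transcript, the order in shNC cells was FTL, FTH1, NCOA4, TFRC, GPX4, ACSL4, ACO1, AIFM2 and IREB2. The neighbours NCOA4 and TFRC overlapped, as did GPX4 and ACSL4. In the shPQBP1 samples ACSL4 stood above GPX4 without overlap, and IREB2 stood above AIFM2 with overlap. ACSL4 also lay above GPX4 in shNC sample 2 (26.1 against 19.11 FPKM) and shNC sample 3 (22.95 against 20.14 FPKM). The order of their shNC means came from shNC sample 1 (13.57 against 24.42 FPKM). The means ran from 4.54 FPKM for IREB2 to 1899.5 FPKM for FTL in shNC cells, and from 5.24 FPKM for AIFM2 to 2681.1 FPKM for FTL in shPQBP1 cells.

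The change of a gene moved with the base composition of its transcript in these libraries. Spearman's rho between GC content and log2 fold change was -0.459 across the 11385 tested genes with a GENCODE transcript, genes that share the same 6 libraries and are not independent replicates. The median log2 fold change was 0.29 for transcripts under 40% GC and -0.17 for those of at least 60% GC. ACSL4 (36.4% GC) and IREB2 (38.2% GC), both higher, and GPX4 (62.3% GC), lower, lay near the medians of genes within 2.5 percentage points of their own GC content, which were 0.31, 0.26 and -0.16. FTL (56.0% GC) and FTH1 (49.96% GC) lay above theirs, at -0.11 and -0.03, and AIFM2 (55.4% GC) lay below its own, at -0.11.

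With each sample's trend on GC content and length removed, the log2 fold change of FTL was 0.65 (limma adjusted p = 0.00752) and that of FTH1 was 0.56 (limma adjusted p = 0.127). AIFM2 passed the threshold in this fit, at -0.34 (limma adjusted p = 0.0257). The values of the genes at the ends of the GC range came closer to 0, at 0.11 for ACSL4, 0.12 for IREB2 and -0.04 for GPX4. TFRC stood at -0.21, with an interval from -1.14 to 0.73, and ACO1 at 0.02. The sign of NCOA4 turned, to -0.04, within an interval from -0.19 to 0.11. The source of the trend on GC content was not tested.

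**Figure D3:**
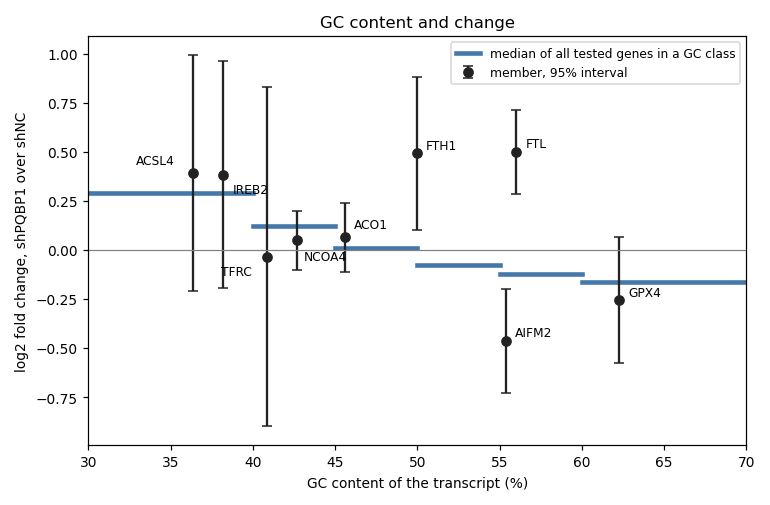
Log2 fold change of FPKM + 0.1 (shPQBP1 over shNC) of each member against the GC content of its transcript in percent, with 95% intervals from limma, and the median of all tested genes in each GC class as a blue line. The medians run from 0.29 down to -0.17, ACSL4, IREB2 and GPX4 lie near them, and FTL and FTH1 lie above and AIFM2 below.

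**Figure D4:**
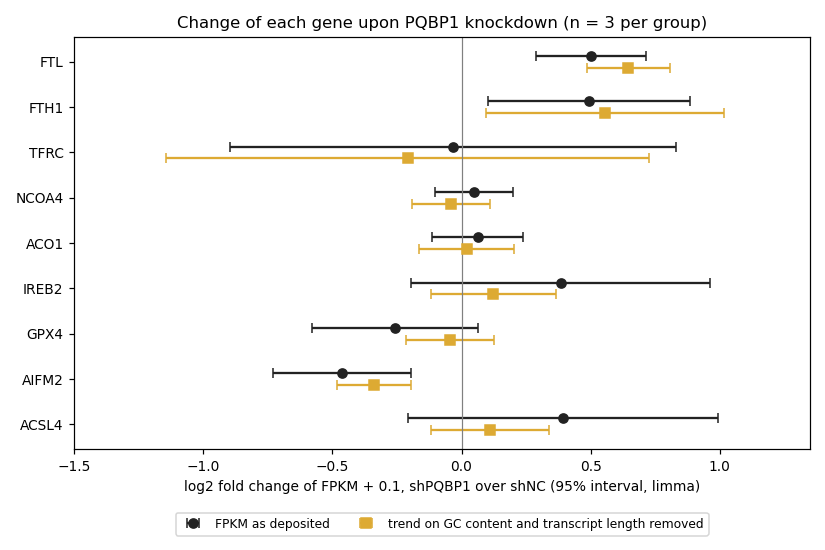
Log2 fold change of FPKM + 0.1 (shPQBP1 over shNC, horizontal axis) of the 9 members with 95% intervals from limma, n = 3 per group, for FPKM as deposited (black circles) and after removal of the GC and length trend (yellow squares). The intervals of FTL, FTH1 and AIFM2 exclude 0 in both fits, and that of TFRC is the widest.

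The other genes of these pathways were taken from 10 lists by role, 119 genes in all without the 9 members, of which 112 were in the table and 92 were tested. Of these, 4 passed an adjusted p of 0.05 (limma; against 2.91% of all genes tested), NQO1 and EPAS1 higher and SCD and FADS1 lower. At an unadjusted p under 0.05, 26 of the 92 were called (28.3%, against 23.6% of all genes tested), 13 higher and 13 lower, and in 34 the groups did not overlap (against 34.4% of all genes tested), both shares near those of genes in general. Their median log2 fold change was 0.01. Without shNC sample 1 each of these 4 genes was still called, and in the other 5 fits with a sample left out none of the 4 was (limma adjusted p up to 0.167).

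**Figure D5:**
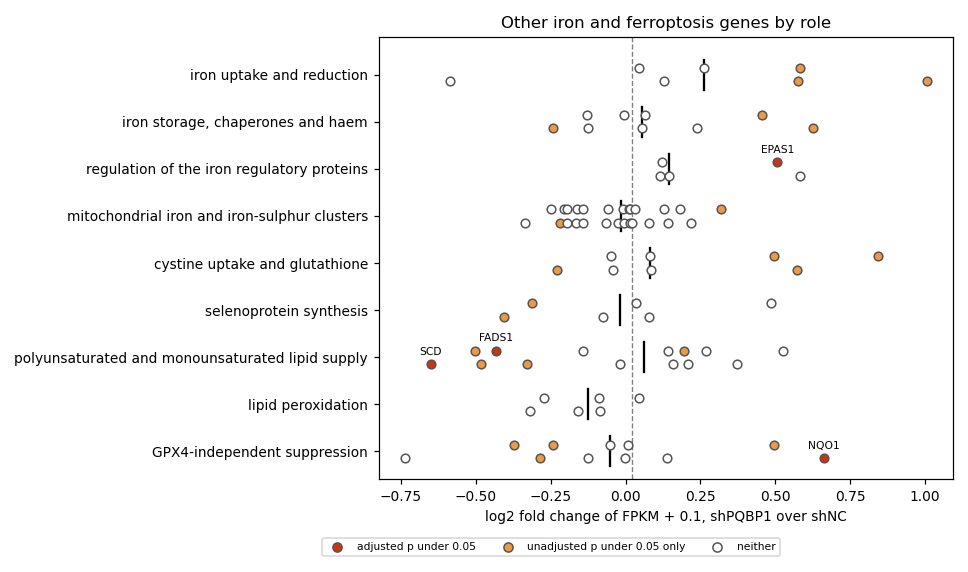
Log2 fold change of FPKM + 0.1 (shPQBP1 over shNC, horizontal axis) of the 92 other iron and ferroptosis genes tested, one point per gene and one line of points per role, with the median of each role as a black bar and the median of all genes tested as a dashed line. Red points passed an adjusted p of 0.05 by limma (SCD, FADS1, EPAS1 and NQO1), orange points an unadjusted p of 0.05 alone.

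Of 7 tested genes of iron uptake and reduction, 3 were higher at an unadjusted p under 0.05 and none lower, against 11.9% and 11.7% of all genes tested. The median GC content of the 7 transcripts was 43.0%, in a class where all genes tested had a median log2 fold change of 0.12. CYBRD1, a ferric reductase, went from 16.33, 21.0 and 18.81 FPKM in shNC cells to 26.97, 26.74 and 30.22 FPKM in shPQBP1 cells without overlap (log2 fold change 0.58, limma adjusted p = 0.0548). STEAP1 (0.57, adjusted p = 0.0995 by limma), of the STEAP family of metalloreductases, and HFE (1.01, adjusted p = 0.130 by limma), a partner of the transferrin receptor, did not pass the adjusted threshold either. HFE was low, at 0.59, 0.67 and 1.38 FPKM in shNC cells and at 1.66, 1.9 and 1.71 FPKM in shPQBP1 cells. Its shNC mean was 0.88 FPKM, so it passed the filter of 1 FPKM only through the shPQBP1 samples. Its place among the 3 higher genes is therefore no support for a rise. With the GC trend removed CYBRD1 (0.40, adjusted p = 0.0222) and STEAP1 (0.41, adjusted p = 0.0451) passed it by limma. The export and systemic group had no gene above the filter. SLC40A1 (ferroportin), the iron exporter, was at 0.51, 0.75 and 0.69 FPKM in shNC cells and at 1.17, 0.87 and 1.31 FPKM in shPQBP1 cells.

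Among 9 tested genes of iron storage, chaperones and haem, FLVCR1, a haem exporter (log2 fold change 0.45, adjusted p = 0.106 by limma), and TAX1BP1, an autophagy receptor that works with NCOA4 in ferritin turnover (0.63, adjusted p = 0.157 by limma), were higher at an unadjusted p under 0.05. TAX1BP1 stood at 0.39 without shNC sample 1 and also with the GC trend removed. PCBP2, an iron chaperone, was lower (-0.24, adjusted p = 0.156 by limma). These 2 higher and 1 lower of 9 stood beside 11.9% higher and 11.7% lower of all genes tested at an unadjusted p under 0.05. Of 5 genes that act on the iron regulatory proteins or share their response, all had a log2 fold change above 0 and EPAS1 (HIF-2α) rose. Of the 11413 genes tested, 6026 had a log2 fold change above 0. The median GC content of the 5 transcripts was 41.2%, in a class where all genes tested had a median of 0.12. EPAS1 was at 14.67, 14.19 and 14.81 FPKM in shNC cells and at 20.33, 21.09 and 20.76 FPKM in shPQBP1 cells (0.51, adjusted p = 0.0217 by limma). FBXL5, the iron-sensing subunit of the ligase that degrades IREB2, stood at 0.15, and at -0.06 with the GC trend removed. HIF1A stood at 0.58 with shNC sample 1 at 11.49 FPKM and the other 5 samples between 25.17 and 34.74 FPKM, and at 0.16 without shNC sample 1.

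EPAS1 is also known as a transcript with an iron-responsive element, as are FTL, FTH1, TFRC, SLC40A1 and SLC11A2. Among these, FTL and EPAS1 rose, FTH1 was higher at an unadjusted p under 0.05, TFRC and SLC11A2 were not called, and SLC40A1 was below the filter. The search above found its letters in FTL, FTH1, TFRC and SLC40A1, and none in EPAS1 and SLC11A2.

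Of 26 tested genes of mitochondrial iron and iron-sulphur clusters, 2 (7.69%, against 23.6% of all genes tested) were called at an unadjusted p under 0.05. They were ISCA1, a cluster assembly protein (log2 fold change 0.32, adjusted p = 0.0680 by limma), and GLRX5, a cluster carrier (-0.22, adjusted p = 0.177 by limma). With the GC trend removed they stood at 0.19 and -0.13. SLC25A28, a mitochondrial iron importer, was not called (-0.20, adjusted p = 0.252 by limma). The median of the group was -0.02.

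Of 8 tested genes of cystine uptake and glutathione synthesis or use, 4 were called at an unadjusted p under 0.05, against 23.6% of all genes tested, and none passed the adjusted threshold. SLC7A11, the cystine transporter, was at 2.69, 5.73 and 5.69 FPKM in shNC cells and at 8.94, 7.19 and 8.13 FPKM in shPQBP1 cells (0.84, adjusted p = 0.167 by limma), and its log2 fold change was 0.49 without shNC sample 1. GCLM, a subunit of glutamate-cysteine ligase (0.57, adjusted p = 0.0597 by limma), and MGST1, a microsomal glutathione transferase (0.50, adjusted p = 0.0568 by limma), were higher too. SLC3A2, the partner chain of SLC7A11, was lower (-0.23, adjusted p = 0.206 by limma). The transcripts of SLC7A11, GCLM and MGST1 had a GC content of 35.4%, 37.3% and 38.7%, and that of SLC3A2 57.8%. With the GC trend removed the values were 0.49 for SLC7A11 (adjusted p = 0.0484 by limma), 0.31 for GCLM (adjusted p = 0.0987 by limma) and 0.29 for MGST1 (adjusted p = 0.0776 by limma). In selenoprotein synthesis, which GPX4 depends on, 2 of 6 tested genes were lower at an unadjusted p under 0.05, TRNAU1AP (-0.41, adjusted p = 0.0759 by limma) and TRIT1 (-0.31, adjusted p = 0.143 by limma), against 11.7% of all genes tested. SEPSECS, which completes the charging of the selenocysteine tRNA, stood at 0.49 (adjusted p = 0.284 by limma) and at 0.20 without shNC sample 1. The group had 3 genes above 0 and 3 below, with a median of -0.02.

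In the supply of unsaturated lipids, the group of ACSL4, 6 of 14 tested genes were called at an unadjusted p under 0.05, 5 of them lower, against 23.6% called and 11.7% lower among all genes tested. SCD, the desaturase that makes monounsaturated fatty acids, fell from 93.49, 84.47 and 80.81 FPKM in shNC cells to 51.67, 54.26 and 58.74 FPKM in shPQBP1 cells (log2 fold change -0.65, adjusted p = 0.0229 by limma). FADS1, a desaturase of polyunsaturated fatty acids, fell from 15.34, 14.48 and 14.38 FPKM to 10.7, 11.27 and 10.68 FPKM (-0.43, adjusted p = 0.0362 by limma), a call lost when all genes not listed at 0 throughout were tested (adjusted p = 0.0611 by limma). MBOAT1, a lysophospholipid acyltransferase, was lower without passing the adjusted threshold (-0.50, adjusted p = 0.0659 by limma). The median of the group was 0.06, since its other members stood on both sides of 0. Of the 6 tested genes of lipid peroxidation, none had an unadjusted p under 0.05 by limma, against 23.6% of all genes tested. Of the 6, 5 had a log2 fold change below 0, against 5387 of the 11413 genes tested. The smallest p belonged to POR (-0.32, adjusted p = 0.236 by limma), VDAC2 (-0.16, adjusted p = 0.247 by limma) and SAT2 (-0.27, adjusted p = 0.328 by limma).

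Among 11 tested genes that suppress ferroptosis independently of GPX4, as AIFM2 does, NQO1 rose and 4 others had an unadjusted p under 0.05, against 23.6% of all genes tested. NQO1, a quinone reductase, was at 45.25, 38.86 and 41.37 FPKM in shNC cells and at 66.28, 65.22 and 67.05 FPKM in shPQBP1 cells (log2 fold change 0.66, adjusted p = 0.0181 by limma). COQ2, an enzyme of coenzyme Q synthesis, was higher (0.50, adjusted p = 0.112 by limma), and DHODH, which reduces coenzyme Q in mitochondria, was lower (-0.37, adjusted p = 0.156 by limma). The genes that the table annotates to the KEGG pathway Ferroptosis, 38 in all with 6 of the 9 members among them, gave 8 calls at an unadjusted p under 0.05 and 1 at an adjusted p under 0.05 among 31 tested. That share of 25.8% lay beside 23.6% of all genes tested.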

How the data were processed

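Poly(A) RNA-seq of HEY cells was used, 3 shNC and 3 shPQBP1 samples grouped by their labels. The deposited FPKM values were made by the authors with HISAT2 (version 2.2.0), SAMtools (version 1.9) and StringTie (version 1.3.0) on hg38, per gene and sample, to 2 decimals; the annotation release and FPKM settings are not given in the sources used here. The table's fold changes, p-values, q-values and significance marks are the authors' edgeR comparison and were not used. Depth is unknown, since the low values showed no steps of whole reads.

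The 11413 of 32679 genes averaging 1 FPKM or more were tested on log2(FPKM + 0.1) without further scaling, with lmFit and eBayes (trend, two-sided) of limma (version 3.58.1) in R (version 4.3.3) and Benjamini-Hochberg adjustment over all genes tested. The steps were tested on simulated data. Transcript lengths, GC content and sequences came from hg38 and GENCODE release 44, where 32454 gene IDs matched. Python (version 3.11.15) with scipy (version 1.17.1) gave the exact permutation tests. The members and lists were chosen with earlier results of these data known. From each role list the genes called at an adjusted p under 0.05 and the 3 with the smallest p were named, and for TFRC and FTH1 the 3 nearest genes. Genes named beyond that (SLC3A2, SLC40A1, SLC11A2, PAX8, marker genes and MACROH2A2) were chosen after their values were seen or as members of a fixed list. Alternatives were median-of-ratios scaling, quantile normalization, 2 other filters, pseudocounts of 1 and 0.01, no trend, the sample number as a replicate block, removal of the trend on GC content and length (natural splines, 5 degrees of freedom), and each sample left out. A gene of the lists is not reported here.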

Additional observations from a re-analysis of the deposited data

How the results depend on the processing

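The count of all genes at an adjusted p under 0.05, 332, was 190 without a filter beyond genes listed at 0 throughout, 211 with a mean FPKM of at least 10, 938 with the trend on GC content and length removed, and 30 to 466 with a sample left out. The count of members, 1, was 0 without that filter or without the mean-variance trend, 2 with the GC trend removed (FTL and AIFM2), and 0 to 1 with a sample left out. The 26 other pathway genes at an unadjusted p under 0.05 were 13 (of 42 tested, not 92) with a mean FPKM of at least 10 and 16 to 24 with a sample left out. The log2 fold change of TFRC turned to 0.01, 0.18 and 0.31 without shNC sample 1, shNC sample 2 and shPQBP1 sample 1, and ran down to -0.29. With the GC trend removed, with or without the block, NCOA4 turned to -0.041 and FBXL5 to -0.058. The cause was not tested. Over 37 named genes, 516 of 574 values kept their direction and their side of the adjusted threshold, 40 lost a call, 11 gained one and 7 changed sign. No scaling moved the median of all genes by over 0.05, but single genes moved further. With quantile normalization FTL stood at 0.70 (limma adjusted p = 0.00112) and FTH1 at 0.66 (limma adjusted p = 0.110). With median-of-ratios scaling both stood at 0.49.

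The labels number the samples 1 to 3 in both groups. Same-numbered samples did not deviate together (correlations of -0.19, -0.14 and -0.01), so the numbers were not taken as pairs. With the replicate block 0 genes, 0 members and 17 other pathway genes were called at these thresholds (limma), and with the block and the GC trend removed 21 genes, 0 members and 23 other pathway genes. At an unadjusted p under 0.05 the block left 3 members called. The share of all genes at an unadjusted p under 0.05 is not given for the fits with the block, so these counts have nothing to stand beside. With the block the adjusted p from limma was 0.215 for FTL, 0.204 for FTH1 and 0.273 for AIFM2.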

Other observations

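In a few genes 1 sample lay far below the other 5, and these genes were chosen after their values were seen. STARD7, which carries coenzyme Q to the plasma membrane, was at 8.86 FPKM in shPQBP1 sample 3 and between 36.02 and 41.91 FPKM in the other samples. SLC39A14, a transporter of non-transferrin-bound iron, was at 6.08 FPKM in shPQBP1 sample 2 and between 15.32 and 17.54 FPKM in the others. FTH1P10 is described with the ferritin copies.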
